A study of Rattus norvegicus with 8 samples.

Results

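The unfolded protein response and the integrated stress response were followed through 39 genes listed by symbol, of which 38 carry that symbol in the authors' deposited comparison table and were joined by Ensembl identifier to the counts of 32623 genes. Nupr1 was not matched and is not analysed here. The genes fall into 6 sensors and core regulators, 18 genes of endoplasmic reticulum (ER) folding and quality control, and 15 targets of the transcription factor ATF4. The source of the RNA was hippocampal neurons of SD rats, wild type, kept in culture until day 18 in vitro (DIV 18). A total of 4 libraries (PAM 1 to 4) came from cultures treated with an NMDA receptor PAM (positive allosteric modulator), and 4 (vehicle 1 to 4) from cultures treated with vehicle. Such compounds make this calcium-permeable glutamate receptor pass more current when its agonists bind. The sources used here do not give the compound, dose or duration, and no label says that the libraries of a group came from separate cultures, so p-values measure the spread between these libraries, which may be technical. The comparison asks whether transcripts of these stress pathways differed after potentiation of the NMDA receptor.

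The ER folds secreted and membrane proteins, and neurons depend on it for receptors, channels and neuropeptides. When unfolded proteins accumulate, the membrane sensors IRE1 (Ern1), PERK (Eif2ak3) and ATF6 raise the transcription of chaperones and of the machinery that extracts and degrades misfolded proteins. PERK also phosphorylates the translation factor eIF2-alpha, as other kinases do on amino acid shortage, which slows protein synthesis but favours translation of ATF4. ATF4 in turn raises genes of amino acid synthesis, redox control and, under lasting stress, cell death. Much of this control is not visible as transcript abundance: ATF4 is regulated mainly by translation, and Xbp1 by a splicing step that counts per gene do not separate.

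Most of these genes did not differ detectably between PAM and vehicle cultures, and those that did went in both directions. The ER chaperone gene Hyou1, the pseudokinase gene Trib3 and the mTORC1 inhibitor gene Ddit4 fell, whereas the sestrin gene Sesn2 and the serine synthesis gene Phgdh rose. The folds were modest: Hyou1 was 1.59-fold, Trib3 2.45-fold and Ddit4 1.43-fold lower with PAM, and Sesn2 was 1.42-fold and Phgdh 1.38-fold higher. In all, 5 of 37 tested members passed the quasi-likelihood test of edgeR at an adjusted p under 0.05 (Benjamini-Hochberg), or 13.5%, against 18.9% of all 11740 tested genes. The 2 members that rose compare with 9.0% of all tested genes, and the 3 that fell with 9.89%. The members' share was therefore no larger than that of genes at large. Groups did not overlap for 7 members (18.9%), against 22.3% of all tested genes. The median log2 fold change (PAM over vehicle) was 0.01 over the members and 0.02 over all tested genes. In the authors' deposited table, 6 of the 38 members lie under an adjusted p of 0.05, the same 5 genes and Asns (adjusted p = 0.0483). Of all 13739 identifiers in that table, 2392 lie under the same threshold.

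**Figure D1:**
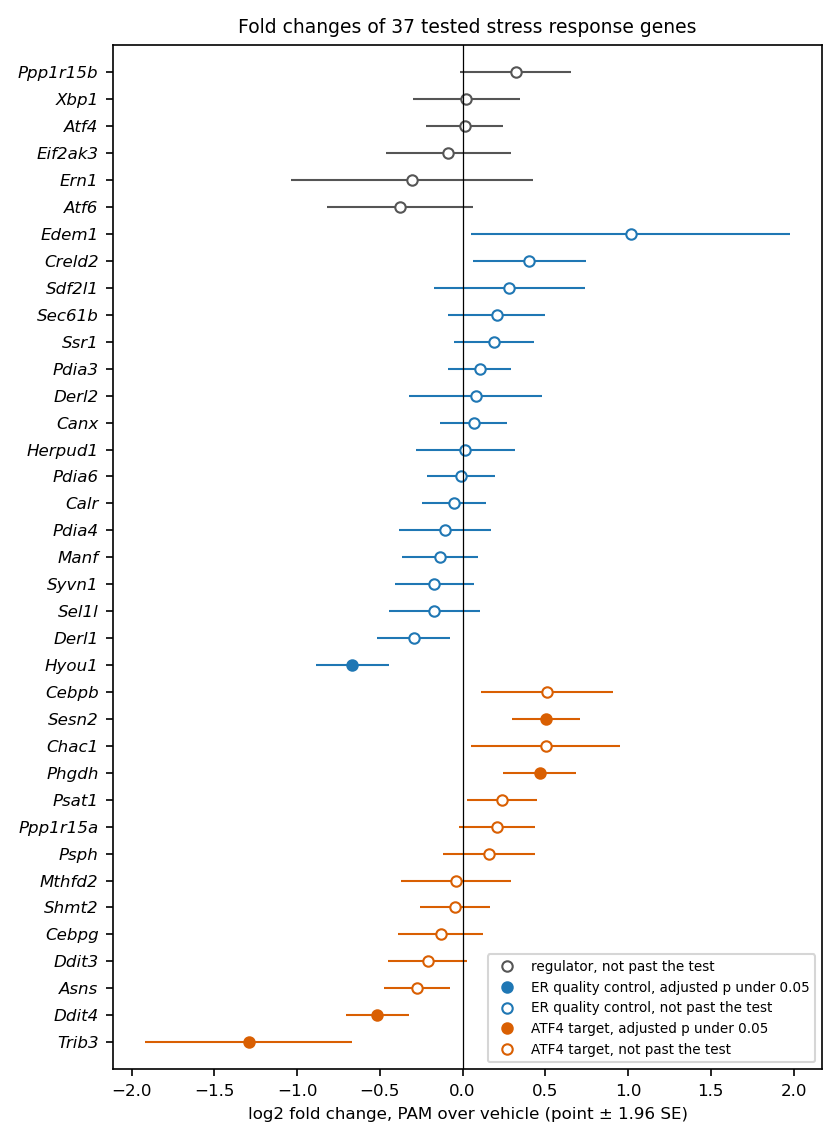
Log2 fold change, PAM over vehicle, of the 37 tested members (points) with 1.96 standard errors either way (lines), grouped as regulators, ER quality control genes and ATF4 targets; filled points passed edgeR's test. The regulators lie around 0, Hyou1 is the filled point among the ER genes, and the ATF4 targets hold filled points on both sides.

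A p that misses the threshold does not show that a gene was unaffected, so intervals of the log2 fold change were read as well. For 24 of the 32 members that did not pass, the interval of 1.96 standard errors lay within a 1.5-fold change either way. For the other 8, which were Ern1, Atf6, Ppp1r15b, Sdf2l1, Creld2, Edem1, Cebpb and Chac1, changes beyond 1.5-fold lay within the interval. The 1.5-fold bound is wider than the called changes of Ddit4 (1.43-fold), Sesn2 (1.42-fold) and Phgdh (1.38-fold), so it leaves room for changes of that size. Without adjustment for the number of genes, the intervals of Derl1, Asns, Psat1, Creld2, Edem1, Cebpb and Chac1 left out 0.

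Levels per exonic length (TPM, a length-normalized share of all transcripts) differed widely between members. Calr, the gene of the lumenal chaperone calreticulin, was the most abundant at 945 TPM with PAM and 1005 TPM with vehicle, followed in vehicle libraries by Atf4 at 566 TPM with PAM and 583 TPM with vehicle. Ddit4 came next at 332 TPM with PAM and 485 TPM with vehicle, and Pdia3, an oxidoreductase that works with calreticulin on glycoproteins, stood at 364 TPM with PAM and 347 TPM with vehicle. At the low end were Ern1 (1.47 TPM with PAM and 1.85 TPM with vehicle) and Edem1 (2.94 TPM with PAM and 1.49 TPM with vehicle). The abundant members thus included chaperones, an ATF4 target and Atf4 itself, while all 3 sensor genes were below the level of 10 TPM.

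**Figure D2:**
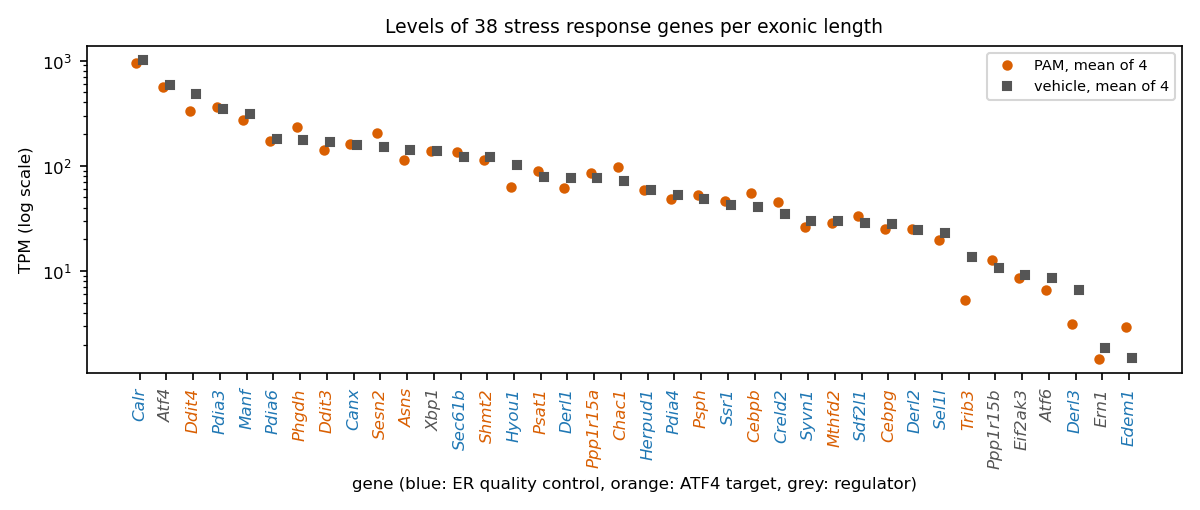
Mean TPM (log scale) of the 38 members in PAM libraries (circles) and vehicle libraries (squares), in order of the vehicle mean. Calr and Atf4 stand at the high end and Ern1 and Edem1 at the low end; Hyou1, Trib3 and Ddit4 have their circle below the square.

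None of the 6 sensors and core regulators passed the test, with log2 fold changes from -0.38 to 0.32 and groups that overlapped for each gene. Among all tested genes 18.9% passed. Atf4 (ENSRNOG00000017801, Rnor_6.0 chr7:121480723-121482772, plus strand) had 598, 686, 741 and 909.6 CPM in PAM 1 to 4, against 664, 704, 786 and 755 CPM in vehicle 1 to 4. The PAM values spanned the vehicle values, with PAM 1 lowest and PAM 4 highest of all 8 libraries, and the log2 fold change was 0.01 ± 0.12 (SE; interval -0.22 to 0.24). Xbp1, which encodes the transcription factor activated by IRE1, had 105, 108, 127 and 59.8 CPM in PAM 1 to 4, against 103, 103, 89.2 and 101 CPM in vehicle 1 to 4. PAM 4 lay below every other library and PAM 3 above, so that the means were nearly equal, at 99.8 ± 28.4 CPM with PAM and 98.8 ± 6.47 CPM with vehicle (SD, n = 4 each). The sensor genes were low and noisy: Ern1 had 2.16 to 9.17 CPM in PAM libraries and 7.62 to 9.63 CPM in vehicle libraries, Eif2ak3 19.5 to 30.0 CPM in PAM libraries and 22.5 to 32.3 CPM in vehicle libraries and Atf6 14.1 to 28.1 CPM in PAM libraries and 21.6 to 29.2 CPM in vehicle libraries. PAM 4 was the lowest of the 8 libraries for Ern1, Eif2ak3 and Atf6 as well as Xbp1. Ppp1r15b, the constitutive phosphatase subunit that reverses eIF2-alpha phosphorylation, had 38.3 to 60.9 CPM in PAM libraries and 33.8 to 40.4 CPM in vehicle libraries and a log2 fold change of 0.32 ± 0.17 (SE; edgeR, Benjamini-Hochberg adjusted p = 0.211).

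Among the 9 ER chaperone and folding genes, Hyou1 alone passed the test (11.1%, against 18.9% of all tested genes), and it fell. Hyou1 (ENSRNOG00000010944, Rnor_6.0 chr8:48699769-48711910, plus strand) encodes a large Hsp70-related chaperone of the ER lumen that serves as nucleotide exchange factor for BiP. It had 204, 210.5, 198 and 156 CPM in PAM 1 to 4, against 305, 329, 306 and 282 CPM in vehicle 1 to 4. Every PAM library lay below every vehicle library, PAM 4 lowest, and the means were 192 ± 24.8 CPM with PAM and 306 ± 19.0 CPM with vehicle (SD, n = 4 each). The log2 fold change of -0.67 ± 0.11 (SE; edgeR, Benjamini-Hochberg adjusted p = 0.00037) stayed past the threshold under each of the 16 alternative settings, at -0.71 to -0.55.

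The other chaperone and folding genes did not pass the test. Calr had 1052 to 1249 CPM in PAM libraries and 1083 to 1298 CPM in vehicle libraries, with a log2 fold change of -0.05 ± 0.10, and Canx, the membrane-bound lectin chaperone calnexin, had 497 to 609.6 CPM in PAM libraries and 458 to 550.3 CPM in vehicle libraries, with 0.07 ± 0.10 on the same scale. The protein disulfide isomerase genes lay at 0.10 for Pdia3, -0.11 for Pdia4 and -0.01 for Pdia6 as log2 fold changes, each with overlapping groups. Manf, a secreted ER-stress-inducible factor with neurotrophic activity, was at 155 ± 22.8 CPM with PAM and 169.8 ± 12.6 CPM with vehicle (SD, n = 4 each). The log2 fold changes of the small stress-induced genes were 0.28 ± 0.23 for Sdf2l1, a partner of ER J-domain co-chaperones, and 0.40 ± 0.18 for Creld2, an ER protein with disulfide isomerase activity. Creld2 had 44.7, 41.6, 30.1 and 43.3 CPM in PAM 1 to 4, against 35.7, 25.6, 29.7 and 29.8 CPM in vehicle 1 to 4. PAM 3 lay within the vehicle range and the other PAM libraries lay above it, and Creld2 missed the threshold (edgeR, Benjamini-Hochberg adjusted p = 0.119) except without PAM 3 (adjusted p = 0.0491) and without both PAM 3 and PAM 4 (adjusted p = 0.0276). Manf passed, with a log2 fold change below 0, without both PAM 3 and PAM 4 (at -0.31, edgeR, Benjamini-Hochberg adjusted p = 0.0266) and with the length trend removed (-0.31, adjusted p = 0.0472), against -0.14 with all libraries (adjusted p = 0.467).

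None of the 6 tested genes of ER-associated degradation passed, nor did the 2 translocation genes, beside 18.9% of all tested genes. Derl1, a membrane protein of the channel that returns misfolded proteins to the cytosol, came closest. It had 108, 114, 113 and 109 CPM in PAM 1 to 4, against 146, 154, 117 and 128 CPM in vehicle 1 to 4, with no overlap between the groups and a log2 fold change of -0.30 ± 0.11 (SE; edgeR, Benjamini-Hochberg adjusted p = 0.0761). Its homologue Derl2 was at 0.08 ± 0.21 on the log2 fold change scale, and Derl3 was not tested, with 4 to 8 counts per PAM library and 2 to 18 per vehicle library. Derl3 also shares exon bases with Smarcb1 on the other strand, so its few counts are uncertain. The ubiquitin ligase gene Syvn1 (Hrd1) had 78.4 to 94.1 CPM in PAM libraries and 85.1 to 113 CPM in vehicle libraries, and Sel1l, its adaptor, had 59.8 to 95.8 CPM in PAM libraries and 85.4 to 104 CPM in vehicle libraries. Syvn1 shares exon bases with Mrpl49 on the other strand, which adds to the uncertainty of its counts. Herpud1, an organiser of that ligase complex induced through both ATF6 and ATF4, had 82.5, 75.9, 78.3 and 46.1 CPM in PAM 1 to 4, against 69.5, 72.4, 69.2 and 70.2 CPM in vehicle 1 to 4. The vehicle libraries lay within a narrow range, PAM 1, 2 and 3 lay above all of them and PAM 4 below. Edem1, which passes glycoproteins on to degradation, had 19, 20, 20 and 26 counts in PAM 1 to 4, against 4, 20, 7 and 7 counts in vehicle 1 to 4. Its log2 fold change of 1.02 ± 0.49 was the highest of the members, rested on few counts and missed the threshold (edgeR, Benjamini-Hochberg adjusted p = 0.162). Sec61b, a subunit of the protein-conducting channel, and Ssr1, of the translocon-associated complex, were at 0.21 ± 0.15 and 0.19 ± 0.12 on the log2 fold change scale.

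Promoter windows from 250 bases before to 50 bases after the annotated start, from RefSeq on GRCr8, were found for 32 of the 38 members and searched on both strands for response elements of these pathways. The ER stress element of ATF6 and XBP1 (CCAAT, any 9 bases, then CCACG) was in 5 of the 32 member windows and in 0.0765% of all 27457 promoter windows. The compact form ERSE-II (ATTGG, any 1 base, then CCACG) was in the windows of Hyou1 and Herpud1 and in 0.0546% of all windows. The core of the XBP1 element, TGACGTGG, was in that of Hyou1 and in 0.637% of all. The ATF4 element core (TGATG, any 1 base, then AA) was in those of Trib3, Chac1, Herpud1 and Ppp1r15b and in 3.82% of all. Among the ATF4 targets it was thus in 2 of 14 windows, and bases outside the windows were not searched. A match is a string of letters and not a shown binding site. The 5 ER stress elements are printed first, from genes that did not pass the test or, for Derl3, were not tested. The fixed letters are those searched for, and the 9 bases between them were free. Each is read on the strand that holds it, 5′ to 3′, with the fixed letters in capitals. On GRCr8 they lie in Xbp1 (chr14:84604558-84604576, plus strand), Calr (chr19:40213135-40213153, minus strand), Canx (chr10:35158069-35158087, minus strand), Creld2 (chr7:121789239-121789257, minus strand) and Derl3 (chr20:12766601-12766619, plus strand).

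Xbp1: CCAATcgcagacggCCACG

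Calr: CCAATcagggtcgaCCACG

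Canx: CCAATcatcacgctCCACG

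Creld2: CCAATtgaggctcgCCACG

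Derl3: CCAATaaggaagtcCCACG

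The windows of Hyou1 and Herpud1 are printed whole because both hold ERSE-II while Hyou1 passed the test and Herpud1 did not. On GRCr8 they are Hyou1 (chr8:53602632-53602931, plus strand) and Herpud1 (chr19:10614658-10614957, minus strand), written 5′ to 3′ along the gene with matches in capitals. In Hyou1 the element lies on the opposite strand, 188 to 178 bases and again 88 to 78 bases before the start, and the farther copy overlaps the TGACGTGG match. In Herpud1 it lies on the gene's own strand, 124 to 114 bases before the start, with the ATF4 element core upstream of it on the opposite strand.

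Hyou1: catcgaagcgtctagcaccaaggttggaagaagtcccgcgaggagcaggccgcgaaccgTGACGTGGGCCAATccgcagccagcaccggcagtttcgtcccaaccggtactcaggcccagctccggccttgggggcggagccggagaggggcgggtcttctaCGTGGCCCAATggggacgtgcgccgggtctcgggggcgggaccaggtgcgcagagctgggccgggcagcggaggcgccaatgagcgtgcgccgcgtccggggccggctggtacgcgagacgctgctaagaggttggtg

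Herpud1: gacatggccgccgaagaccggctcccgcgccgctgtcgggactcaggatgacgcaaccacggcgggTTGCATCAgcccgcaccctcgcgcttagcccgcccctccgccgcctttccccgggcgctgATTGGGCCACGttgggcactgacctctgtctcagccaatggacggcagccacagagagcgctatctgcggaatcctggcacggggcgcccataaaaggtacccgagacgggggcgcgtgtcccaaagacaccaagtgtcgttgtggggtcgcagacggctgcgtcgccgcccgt

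The log2 fold change was -0.67 for Hyou1 and 0.02 for Herpud1, and -0.05, 0.02, 0.07 and 0.40 for Calr, Xbp1, Canx and Creld2. Of these 6 genes with an ER stress element of either form, Hyou1 alone passed the test, beside 18.9% of all tested genes. So small a number does not set them apart from genes at large.

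Among ATF4 targets of transcription and signalling, 2 of 8 fell and 1 rose, so that 37.5% passed, against 18.9% of all tested genes. Trib3 (ENSRNOG00000007319, Rnor_6.0 chr3:147813473-147819571, minus strand) encodes a pseudokinase that binds ATF4 and dampens its activity. It had 5.76, 6.82, 9.31 and 5.41 CPM in PAM 1 to 4, against 25.0, 19.3, 13.1 and 9.71 CPM in vehicle 1 to 4. The vehicle libraries differed more than 2-fold among themselves, yet each lay above every PAM library, and the means were 6.83 ± 1.76 CPM with PAM and 16.8 ± 6.76 CPM with vehicle (SD, n = 4 each). This gave a log2 fold change of -1.29 ± 0.32 (SE; edgeR, Benjamini-Hochberg adjusted p = 0.00761), and the adjusted p ranged from 0.00526 to 0.0454 when single libraries were left out, highest without vehicle 1.

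Ddit4 (REDD1; ENSRNOG00000057078, Rnor_6.0 chr20:29509289-29511382, minus strand), an inhibitor of the growth kinase complex mTORC1 that also responds to hypoxia and glucocorticoids, had 382, 377, 408 and 335 CPM in PAM 1 to 4, against 524, 548, 538 and 536 CPM in vehicle 1 to 4. All PAM libraries lay below all vehicle libraries, which were tightly grouped, and the means were 375 ± 30.3 CPM with PAM and 536 ± 9.84 CPM with vehicle (SD, n = 4 each). Its log2 fold change of -0.51 ± 0.10 (SE; edgeR, Benjamini-Hochberg adjusted p = 0.00102) stayed past the threshold under each alternative. Sesn2 (ENSRNOG00000042785, Rnor_6.0 chr5:150684133-150704117, minus strand), a leucine-binding inhibitor of mTORC1 with antioxidant functions that is known to be induced by synaptic NMDA receptor activity in rodent neurons, had 449, 470.2, 562 and 558 CPM in PAM 1 to 4, against 336, 373, 374 and 354 CPM in vehicle 1 to 4. Here every PAM library lay above every vehicle library, with means of 509.9 ± 58.7 CPM with PAM and 359 ± 18.0 CPM with vehicle (SD, n = 4 each). Sesn2 rose with a log2 fold change of 0.50 ± 0.10 (SE; edgeR, Benjamini-Hochberg adjusted p = 0.00227). These 2 inhibitors of the same kinase complex thus differed in opposite directions.

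**Figure D3:**
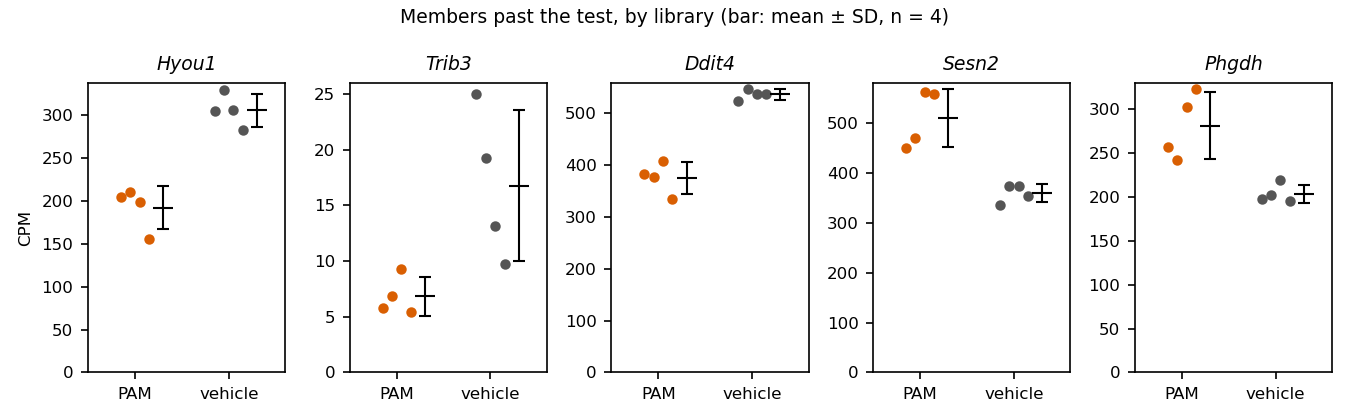
CPM of the 5 members past the test in each PAM library (left of each panel) and vehicle library (right), with mean ± SD (n = 4 per group) and axes that start at 0. Hyou1, Trib3 and Ddit4 lie lower and Sesn2 and Phgdh higher in all PAM libraries than in any vehicle library.

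The remaining signalling targets did not pass. Ddit3, the gene of the pro-apoptotic factor CHOP, had 79.98, 85.3, 83.8 and 95.2 CPM in PAM 1 to 4, against 113, 98.0, 105 and 82.5 CPM in vehicle 1 to 4. Vehicle 4 lay within the PAM range and the other vehicle libraries above it, at a log2 fold change of -0.21 ± 0.12 (SE; edgeR, Benjamini-Hochberg adjusted p = 0.247). Ddit3 shares 72 exon bases with the methionyl-tRNA synthetase gene Mars on the other strand, so part of its counts is uncertain. With the length trend removed Ddit3 passed (at -0.37, edgeR, Benjamini-Hochberg adjusted p = 0.0396). Ppp1r15a (GADD34), the stress-induced counterpart of Ppp1r15b, was at 138 ± 15.6 CPM with PAM and 119 ± 11.2 CPM with vehicle, and Cebpg, a dimer partner of ATF4, at 56.7 ± 6.48 CPM with PAM and 61.9 ± 1.62 CPM with vehicle (SD, n = 4 each).

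Chac1 and Cebpb varied widely between libraries. Chac1, which degrades glutathione, had 83.0, 73.6, 121 and 132 CPM in PAM 1 to 4, against 40.5, 71.3, 80.8 and 95.1 CPM in vehicle 1 to 4. PAM 3 and PAM 4 lay above all vehicle libraries, vehicle 1 was lowest, and the log2 fold change of 0.50 ± 0.23 missed the threshold (edgeR, Benjamini-Hochberg adjusted p = 0.146), but Chac1 passed with the replicate number as a block (adjusted p = 0.0227) and with no low-count filter (adjusted p = 0.00645). Cebpb, a transcription factor of inflammatory and activity-dependent programmes, had 48.9, 35.0, 71.7 and 53.0 CPM in PAM 1 to 4, against 26.8, 42.9, 42.0 and 34.0 CPM in vehicle 1 to 4. PAM 2 lay within the vehicle range, and Cebpb passed without PAM 2 (edgeR, Benjamini-Hochberg adjusted p = 0.0156) and with no low-count filter (adjusted p = 0.0311), against 0.09 with all libraries. With PAM 3 and PAM 4 left out, the log2 fold changes were 0.14 for Chac1 and 0.21 for Cebpb, against 0.50 and 0.51 with all libraries.

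The windows of Trib3 and Chac1 show the ATF4 element core in a target that fell and in one whose mean was higher with PAM without passing. They are Trib3 (chr3:161275484-161275783, minus strand) and Chac1 (chr3:126795881-126796180, plus strand) on GRCr8, written 5′ to 3′ along the gene, and the capitals mark the core, which lies on the opposite strand in both, 21 to 14 bases before the start in Trib3 and 167 to 160 bases before it in Chac1.

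Trib3: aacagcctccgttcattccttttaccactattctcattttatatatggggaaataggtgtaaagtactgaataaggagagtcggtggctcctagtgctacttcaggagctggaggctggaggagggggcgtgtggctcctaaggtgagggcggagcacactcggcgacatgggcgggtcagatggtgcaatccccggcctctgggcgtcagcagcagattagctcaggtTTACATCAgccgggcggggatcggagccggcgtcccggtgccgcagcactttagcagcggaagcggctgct

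Chac1: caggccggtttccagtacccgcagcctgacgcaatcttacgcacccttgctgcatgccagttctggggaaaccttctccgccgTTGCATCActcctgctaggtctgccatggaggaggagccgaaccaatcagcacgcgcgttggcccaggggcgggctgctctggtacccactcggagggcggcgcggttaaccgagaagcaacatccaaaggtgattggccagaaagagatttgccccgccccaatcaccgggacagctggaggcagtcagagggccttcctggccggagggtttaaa

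Of the 4 members with this core, the log2 fold change was -1.29 for Trib3, 0.50 for Chac1, 0.32 for Ppp1r15b and 0.02 for Herpud1. Trib3 alone passed the test, beside 18.9% of all tested genes, and 4 genes are too few to compare with that share.

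Of the 6 ATF4 target enzymes of amino acid and one-carbon metabolism, Phgdh rose and none fell (16.7% passed, against 18.9% of all tested genes). Phgdh (ENSRNOG00000019328, Rnor_6.0 chr2:200484246-200513564, minus strand) encodes the first enzyme of serine synthesis, which in brain is mainly an astrocyte enzyme. It had 257, 242, 303 and 323 CPM in PAM 1 to 4, against 198, 202, 219 and 195 CPM in vehicle 1 to 4. All PAM libraries lay above all vehicle libraries, PAM 4 and PAM 3 highest. The means were 281 ± 38.2 CPM with PAM and 203 ± 10.7 CPM with vehicle (SD, n = 4 each), with a log2 fold change of 0.47 ± 0.11 (SE; edgeR, Benjamini-Hochberg adjusted p = 0.00633). Psat1 and Psph, which encode the next steps from phosphohydroxypyruvate to serine, had 156 to 177 CPM in PAM libraries and 125 to 158 CPM in vehicle libraries for Psat1 and 43.1 to 53.7 CPM in PAM libraries and 41.8 to 48.2 CPM in vehicle libraries for Psph. Their log2 fold changes of 0.24 ± 0.11 and 0.16 ± 0.14 had the sign of that of Phgdh, with overlapping groups and without passing (edgeR, Benjamini-Hochberg adjusted p = 0.133 and 0.469). Asns, asparagine synthetase and a widely used readout of ATF4, had 176, 167, 155 and 172 CPM in PAM 1 to 4, against 192, 207, 190.3 and 219 CPM in vehicle 1 to 4. Each PAM library lay below each vehicle library, at a log2 fold change of -0.27 ± 0.10 (SE; edgeR, Benjamini-Hochberg adjusted p = 0.0693). DESeq2 gave Asns an adjusted p of 0.0461, so this call depended on the test. Shmt2 and Mthfd2, of the mitochondrial folate pathway, were at -0.05 ± 0.11 and -0.04 ± 0.17 on the log2 fold change scale.

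Cell type markers differed in the same libraries; of all tested genes, 9.0% rose and 9.89% fell. Of 8 astrocyte markers 5 rose and 0 fell, and their summed level was 9133 to 11113 CPM in PAM libraries and 6237 to 6564 CPM in vehicle libraries, with none of the 8 at 0. Their part in the Phgdh result was not tested. Neuron markers fell in 6 of 11 and rose in 0, with a summed level of 3391 to 3979 CPM in PAM libraries and 4623 to 5346 CPM in vehicle libraries and none at 0, and their part in the lower Hyou1, Trib3 and Ddit4 was not tested either. The cultures thus held transcripts of neurons and of glia. Oligodendrocyte markers rose in 5 of 10 and fell in 1, and the 4 tested ependymal and choroid plexus markers all rose, to a sum of 113 to 183 CPM in PAM libraries and 36.3 to 50.9 CPM in vehicle libraries over 7 genes. Of microglia markers none of 3 passed, and of endothelial and fibroblast markers 3 of 6 rose. In such bulk samples, fewer cells of a type and less RNA per cell cannot be told apart. Libraries held 2960406 to 4389430 counts. Against each gene's mean over all libraries, each doubling of exonic length went with 0.00524 to 0.0627 log2 units in PAM 1, PAM 2 and the vehicle libraries. Longer genes were relatively lower in PAM 3 and PAM 4, at -0.0853 and -0.132 log2 units per doubling. The calls of Hyou1, Trib3, Ddit4, Sesn2 and Phgdh held without both of these libraries, where the log2 fold changes were -0.55, -1.40, -0.49, 0.37 and 0.31 in that order, and with the length trend removed, where they were -0.60, -1.33, -0.58, 0.57 and 0.41.

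Median changes of the ER quality control genes and of the ATF4 targets were both close to 0. Of 17 ER genes tested, 1 passed (5.88%), and of 14 ATF4 targets, 4 passed (28.6%), beside 18.9% of all tested genes. The difference between these shares was not tested. Log2 fold changes beyond 0.5 either way were seen for 2 ER genes, 5 ATF4 targets and 27.8% of all tested genes. The median log2 fold change was 0.02 for ER genes and 0.06 for ATF4 targets, a difference of -0.05, and 0.02 for all tested genes. By size without sign, the median was 0.17 for ER genes, 0.26 for ATF4 targets and 0.29 for all tested genes. The median standard error was 0.12 for ER genes, 0.12 for ATF4 targets and 0.20 for all tested genes. Sizes without sign and the numbers beyond 0.5 thus hold more noise among all tested genes, and do not show that the members moved less.

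Library by library, the median deviation of the ER genes from the vehicle mean (log2 CPM) was 0.01 to 0.03 in PAM libraries and -0.03 to 0.04 in vehicle libraries, and that of the ATF4 targets was -0.05 to 0.14 in PAM libraries and -0.06 to 0.04 in vehicle libraries. Their difference, ER genes minus ATF4 targets, was -0.12 to 0.05 in PAM libraries and -0.07 to 0.04 in vehicle libraries. The groups overlapped on each of these median measures. Summed over tested genes, ER quality control transcripts made up 3343 ± 36.4 CPM with PAM and 3476 ± 87.3 CPM with vehicle (SD, n = 4 each), with every PAM library (3303 to 3391 CPM) below every vehicle library (3396 to 3583 CPM). The closest libraries were PAM 1 at 3391 CPM and vehicle 1 at 3396 CPM. Hyou1 alone averaged 192 CPM with PAM and 306 CPM with vehicle within these sums. No sums were made without Hyou1, so they do not show a fall of the ER genes as a class. The sums of the ATF4 targets overlapped, at 2186 ± 158 CPM with PAM and 2093 ± 64.8 CPM with vehicle (SD, n = 4 each).

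**Figure D4:**
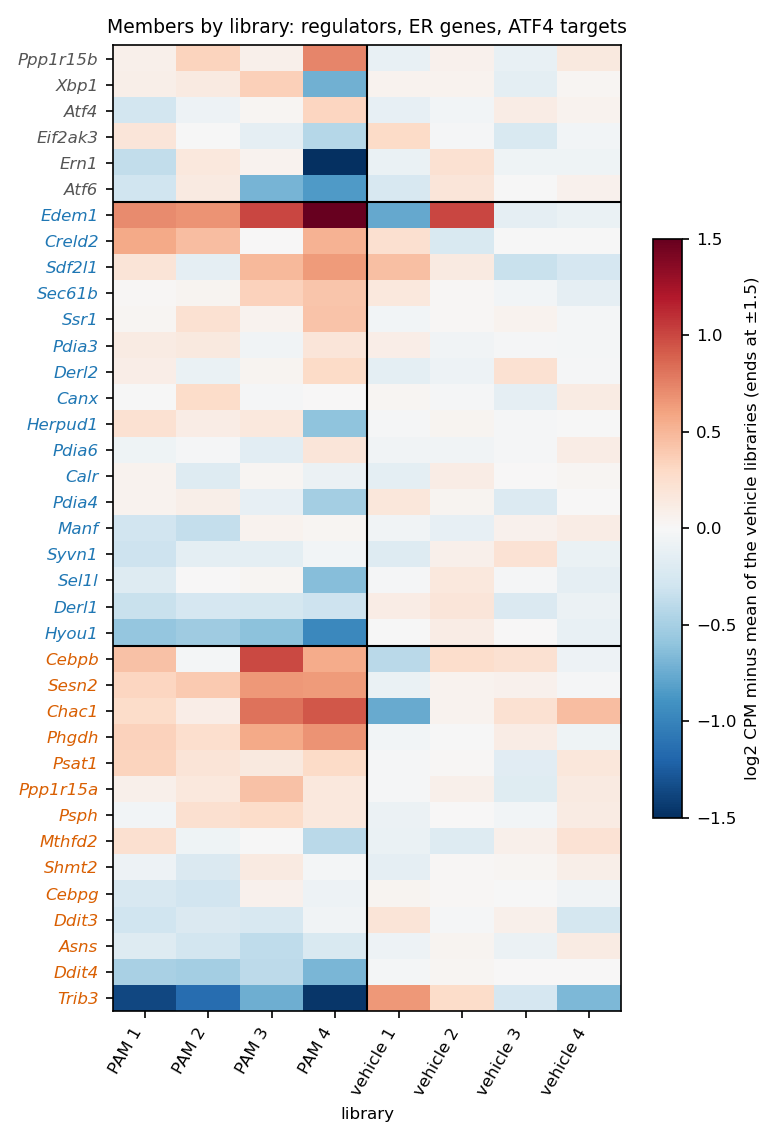
Log2 CPM of each tested member minus its mean over the vehicle libraries, in PAM 1 to 4 (left) and vehicle 1 to 4 (right), with rows grouped as regulators (grey names), ER genes (blue) and ATF4 targets (orange); colours end at 1.5 either way. Rows of Hyou1, Ddit4 and Trib3 are blue and those of Sesn2 and Phgdh red in all PAM libraries, and PAM 4 holds dark cells of both colours among the regulators and ER genes.

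Further genes of the same pathways were taken from lists made by role, though with earlier results of these data known. Their shares are therefore description and not an independent check. Of 33 other ER folding, degradation and translocation genes, 1 rose and 2 fell (9.09% against 18.9% of all tested genes), with a median log2 fold change of 0.09. Ero1a, the oxidase that recharges protein disulfide isomerase, fell to 19.9 ± 4.48 CPM with PAM, against 31.0 ± 6.48 CPM with vehicle. The degradation lectin gene Erlec1 fell with a log2 fold change of -0.32 ± 0.11, and the signal peptidase subunit gene Spcs1 rose with one of 0.44 ± 0.13. Ero1a and Erlec1 passed narrowly (edgeR, Benjamini-Hochberg adjusted p = 0.0435 and 0.0468). Hspa5, the gene of the chaperone BiP and the usual marker of the unfolded protein response, was singled out after its values were seen. It had 651, 724, 593 and 639 CPM in PAM 1 to 4, against 658, 621, 579.8 and 643 CPM in vehicle 1 to 4. The groups overlapped and Hspa5 was far from the threshold (edgeR, Benjamini-Hochberg adjusted p = 0.728).

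Of 27 other ATF4 targets, 4 fell and 0 rose. Thus 14.8% passed in either direction, below the 18.9% of all tested genes, and 14.8% fell, against 9.89%. Their median log2 fold change was -0.19 against 0.02 over all tested genes. Vldlr, a receptor for reelin and lipoproteins, fell with a log2 fold change of -0.84 ± 0.13 (SE; edgeR, Benjamini-Hochberg adjusted p = 0.000165). Atf5, a transcription factor related to ATF4, fell to 241 ± 57.0 CPM with PAM, against 375 ± 30.7 CPM with vehicle (SD, n = 4 each). The other genes that fell were Mthfd1l, of mitochondrial folate metabolism, at -0.58, and Pycr1, of proline synthesis, at -0.64 on the log2 scale. PAM and vehicle libraries did not overlap for 7 of these genes, each lower with PAM, or 25.9%. Of all tested genes, 22.3% did not overlap in either direction, and 12% had every PAM library below every vehicle library. Among 17 other stress sensors and regulators of eIF2, 11.8% passed in either direction, against 18.9% of all tested genes. Here 2 fell and 0 rose, and the share that fell, 11.8%, was near the 9.89% of all tested genes. The genes were Creb3l1, an ER-tethered relative of ATF6, at 14.7 ± 3.41 CPM with PAM and 29.0 ± 4.78 CPM with vehicle, and Mbtps2, the site-2 protease gene whose product releases ATF6, at 7.55 ± 2.43 CPM with PAM and 13.9 ± 2.98 CPM with vehicle (SD, n = 4 each). Mbtps2 passed narrowly (edgeR, Benjamini-Hochberg adjusted p = 0.0495), from 16 to 50 counts per PAM library and 34 to 59 per vehicle library.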

How the data were processed

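Per the labels, mRNA libraries (Vazyme kit) were read on an Illumina GAIIx. The authors deposited raw gene counts for each library, in featureCounts layout with Ensembl rat identifiers. Per the submitters' processing notes, STAR, featureCounts, DESeq2, DESeq and the build Rnor_6.0 were used. Strandedness and annotation release were not stated, so genes with overlapping partners are uncertain. The authors also deposited their own comparison as group means (a signal of normalized counts), log2 fold changes and raw and adjusted p-values. That table supplied the symbols.

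From the counts, edgeR 4.0.16 (R 4.3.3, limma 3.58.1) was run on the 11740 genes kept by filterByExpr, with TMM scaling, robust quasi-likelihood dispersions, group as the sole term and Benjamini-Hochberg adjustment over every tested gene. A standard error is |log2 fold change| / √F. CPM values use TMM-scaled library sizes, TPM values do not, and log2 CPM has a prior count of 2. For a gene with 0 counts, 3 counts of the total set an upper limit of 0.683 to 1.01 CPM, for counting error alone. All 39 members were to be named, and other list genes where they passed the test with groups that did not overlap, up to 8 per list. The procedure was tested on simulated data, in which 71 genes were changed 1.5-fold, 67 genes 2-fold and 61 genes 4-fold. It called 22.5%, 71.6% and 96.7% of them in that order, so most simulated 1.5-fold changes were missed. The simulation had 129 called genes, against 2218 in the data, so its Benjamini-Hochberg cutoff on the raw p was stricter. These shares therefore do not give the power of the test for the members. Members and lists were chosen with earlier results of these data known. Replicate pairs differed beyond counting noise, at a chi-square of 2.85 to 15.9 per degree of freedom. Promoter sequences are from RefSeq (GRCr8). The alternatives changed the test (DESeq2 1.42.0, limma-voom), the scaling (upper quartile, RLE), the filter (none), the model (a replicate block, a loess removal of the length trend with span 0.5) or the libraries (each left out, PAM 3 and PAM 4 left out together).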

Additional observations from a re-analysis of the deposited data

Results flagged for a closer look

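Within groups of 4 libraries, 4 of the 76 member and group pairs held a library far from the rest (Dixon's ratio above 0.829, which chance alone gives in about 1 in 20 groups). Canx stood at 609.6 CPM in PAM 2, against 497 to 505 CPM in the other PAM libraries. Xbp1 stood at 89.2 CPM in vehicle 3, against 101 to 103 CPM in the other vehicle libraries. The Ern1 value was 9.63 CPM in vehicle 2, against 7.62 to 7.83 CPM in the other vehicle libraries. The Derl3 value was 2.88 CPM in PAM 4, against 0.853 to 1.15 CPM in the other PAM libraries, from at most 8 counts in a library. None of these genes passed the test or, for Derl3, was tested.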

How the results depend on the processing

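The 5 calls of Hyou1, Trib3, Ddit4, Sesn2 and Phgdh were kept under all 16 alternatives, and no called direction reversed. Members called higher numbered 2 as reported and 4 with no low-count filter, which added Cebpb and Chac1. Members called lower numbered 3 as reported and 5 with the length trend removed, which added Manf and Ddit3; the cause was not tested in either case. The other alternatives gave 2 to 3 higher and 3 to 4 lower. Over the single members, 10 of 592 gene and setting pairs gained a call and none lost one. Without single libraries, members called higher ranged from 2 to 3, and genes called over the whole table from 713 to 1148 higher and 796 to 1269 lower. The difference of the class medians (ER genes minus ATF4 targets) ran from -0.102 to -0.00229 over all settings. The labels do not say what a replicate number marks, and deviations of same-numbered libraries correlated at -0.06 to 0.07, so the numbers were not taken as pairs. With the replicate block, 3 members were called higher, Chac1 being added, and 3 lower, with a class difference of -0.07 and 954 genes higher and 1110 lower over the whole table. Depth limits Ern1, Edem1 and Derl3, each with fewer than 10 counts in at least 1 library.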

Other observations

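PAM 4, the library with the fewest counts, held the extremes of many members in both directions. It was the lowest of the 8 libraries for 11 of 37 tested members and the highest for 11 (29.7% each), against 22.6% and 20.9% of all tested genes. Among the ER genes it was lowest for 4 and highest for 7 of 17, and among the regulators lowest for 4 and highest for 2 of 6. Sel1l, for example, had 82.1, 94.0, 95.8 and 59.8 CPM in PAM 1 to 4, against 92.7, 104, 92.7 and 85.4 CPM in vehicle 1 to 4. Pdia4, another gene at its lowest in PAM 4, had 81.4, 83.4, 72.0 and 55.2 CPM in PAM 1 to 4, against 88.1, 80.9, 67.9 and 78.6 CPM in vehicle 1 to 4. In contrast Ssr1 had 75.1, 86.4, 76.1 and 98.8 CPM in PAM 1 to 4, against 71.6, 74.6, 76.1 and 72.1 CPM in vehicle 1 to 4. PAM 3 was the highest library for 6 of 14 ATF4 targets, against 10.5% of all tested genes. Among these was Ppp1r15a, with 125, 133, 161 and 132 CPM in PAM 1 to 4, against 117, 125, 105 and 130.1 CPM in vehicle 1 to 4.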
